A study of Mus musculus with 3 samples.

Results

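The genes described here code for the main chromatin regulators of the cell: the Polycomb repressive complexes PRC2 and PRC1, the trithorax-type COMPASS complexes, histone deacetylases, the enzymes that write and remove DNA methylation, and nucleosome remodellers with the histone acetyltransferases and the demethylase Kdm1a. They were 59 named genes, taken by symbol. Of these, 58 had at least 1 probe set annotated with that symbol alone, out of 19938 genes so measured. The other, Cbx6, lay on a probe set shared with another gene and was not analysed here.

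PRC2 adds methyl groups to a lysine of histone H3, and PRC1 ubiquitinates histone H2A, and both are known for keeping developmental regulators silent. COMPASS complexes methylate another lysine of histone H3 at active promoters. Deacetylases remove the acetyl groups that p300-type enzymes add, Dnmt enzymes methylate cytosine in CpG dinucleotides, Tet enzymes oxidise that mark, and remodellers move nucleosomes. Several of these activities are shared out among paralogues, so that the set of paralogues a cell uses decides the make-up of each complex.

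The cells were ureteric bud cells, the epithelium that branches to form the collecting ducts of the kidney. They came from CD-1 mouse embryos at 10.5 days post coitum (Theiler stage 18), of unknown sex, which carried the transgene Tg(Hoxb7-EGFP)33Cos, in which Hoxb7 regulatory sequence marks the nephric duct and bud with green fluorescent protein. Each of the 3 samples, labelled as ureteric tip, was 1 bud, not pooled, whose cells were freed with trypsin and passed through a fluorescence sorter, and the 3 arrays form 1 group, so that no condition, genotype or stage was compared. The questions open to the design were which genes lay above background and how the buds differed.

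Signals are given on a log2 scale, and background was the 95th percentile of olfactory receptor probe sets on the same array, at 5.40, 5.45 and 5.41 log2 on arrays 1, 2 and 3. A gene was above background where limma's one-sided moderated test gave an adjusted p under 0.05 over all genes. Of all genes, 51.7% held 1 identical value on all 3 arrays, which leaves no measured spread between buds, and an SD is printed only where values varied. Some of these values also recurred in other genes. Sox1 and Epop both had 6.28254 log2 on all 3 arrays. Sirt1 had 7.41936 log2 on all 3, the value of Rnf2 on array 1. The source of such shared values was not tested, and they may not be particular to the gene. Signals of different probe sets depend on their probes, so no gene's level is ranked against another's. Marker lists were chosen with earlier results of these data known, so their counts are a description and no test of cell identity or purity. Over all genes, 53.0% were above background. The bud markers were above it in 12 of 12 genes. Mesenchyme and stroma markers were above it in 1 of 10 (Col1a2) and leukocyte markers in 3 of 8 (Cx3cr1, Cd68 and C1qc). Endothelial markers were above background in 7 of 10, erythroid markers in 3 of 7 (Hba-x, Alas2 and Slc4a1) and neural crest markers in 3 of 4, all but Foxd3.

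Of the 58 chromatin genes, 52 (89.7%) were above background, where 53.0% of all genes were. Their median height above background was 1.93 log2, beside 0.22 log2 over all genes. The 6 that were not above background were Phf19 of PRC2, Pcgf1 and Pcgf5 of PRC1, the deacetylases Hdac9 and Hdac11, and Dnmt3l. All measured members of COMPASS (8 of 8), of the remodellers (9 of 9) and of the acetyltransferase and demethylase group (3 of 3) were above it. PRC2 had 7 of 8, PRC1 12 of 14, the DNA methylation enzymes 6 of 7 and the deacetylases 7 of 9. At the stricter 99th percentile of olfactory receptors 44 members were above background (35.3% of all genes), and against the 95th percentile of keratin-associated protein and beta-defensin probe sets 32 were (21.1% of all genes). At the laxer levels, 54 members were above the 90th percentile of olfactory receptors (63.7% of all genes) and 54 above vomeronasal receptors (65.1% of all genes). With an SD floor for identical genes the count was 51 (51.1% of all genes), and with identical genes left out it was 36 of 37 (63.1% of the genes that varied). It was 51 without array 1 (48.5% of all genes), 51 without array 2 (52.8%) and 51 without array 3 (48.8%). The brightest probe set per gene gave 52 (53.4% of all genes), quantile normalization 52 (52.8%), a rule of lying above the level on every array 52 (54.0%), and leaving out probe sets without a RefSeq transcript 52 (53.3%). With the dimmest 25% of probe sets left out, 52 of 56 members were called (65.0% of the genes kept).

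**Figure D1:**
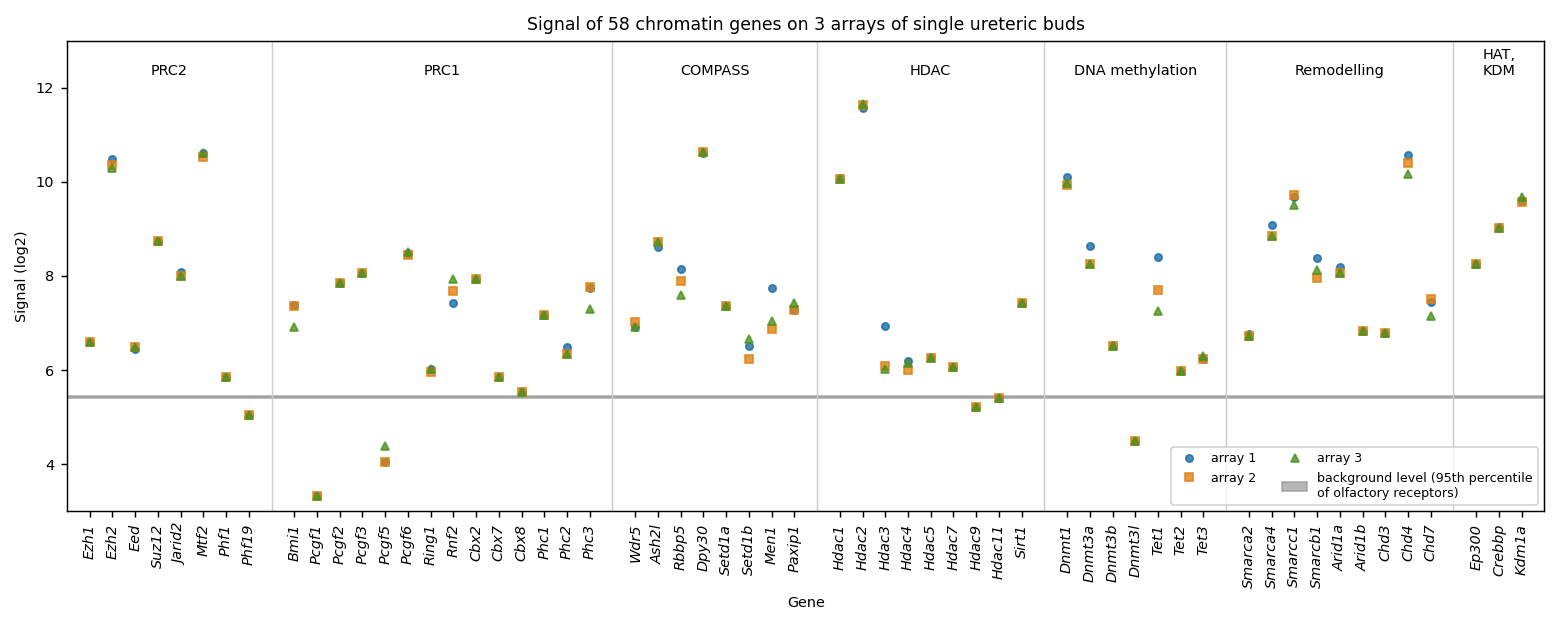
Signal (log2, vertical axis) of the 58 measured chromatin genes (horizontal axis, by complex; HAT, KDM are the acetyltransferases and the demethylase), with 1 point per array and a grey band for the background levels of 5.40 to 5.45 log2. The points of Phf19, Pcgf1, Pcgf5, Hdac9, Hdac11 and Dnmt3l lie below or at the band, and Tet1, Men1 and Hdac3 show the widest spread between arrays.

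**Figure D2:**
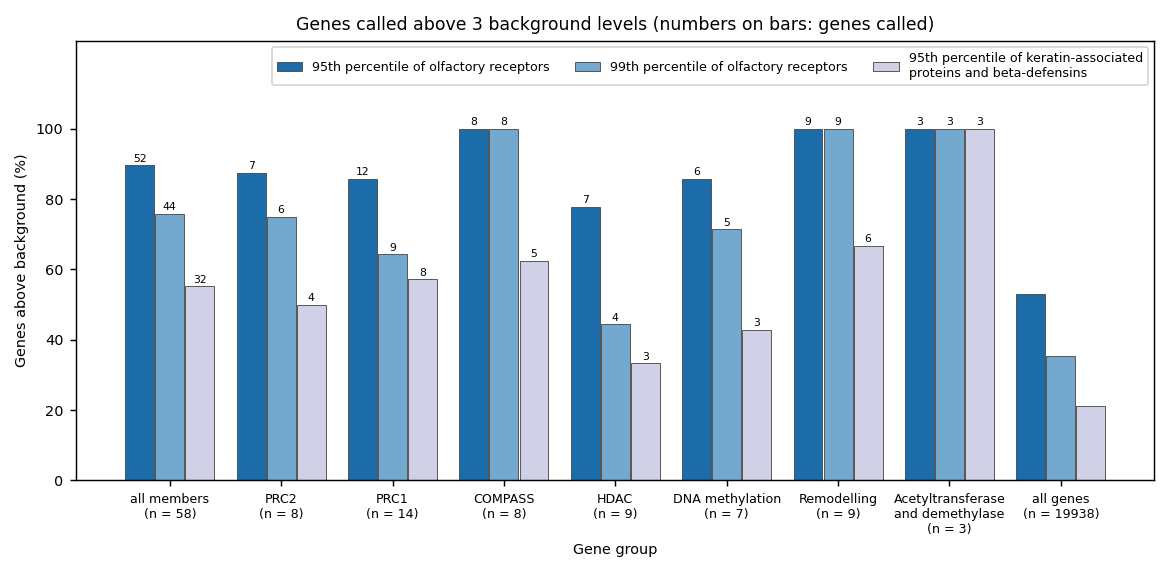
Percentage of measured genes above background (vertical axis) in all members, in each complex and in all 19938 genes (horizontal axis) at 3 background levels, with the number of genes called on each bar of a chromatin group. The share of members was 89.7% and that of all genes 53.0% at the 95th percentile of olfactory receptors, and the deacetylases had 4 of 9 genes called at the 99th.

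The core of PRC2 was above background in every subunit. Ezh2, the catalytic methyltransferase, had signals of 10.49, 10.36 and 10.29 log2 on arrays 1, 2 and 3 (10.38 ± 0.10, SD, n = 3). Its paralogue Ezh1 had 6.59 log2 on each array, and Suz12, the scaffold subunit, 8.73 log2 on each. All 3 cleared the background in each bud. Eed, the subunit that binds the methylated histone, had 2 probe sets that disagreed. The one that lists RefSeq transcripts had 8.77, 8.86 and 8.87 log2, while the other, which lists a single cDNA clone, had 4.13 log2 on all 3 arrays, below background. The mean of both, 6.48 ± 0.03 log2 (SD, n = 3), was above background (limma, adjusted p = 8.22e-06), and without probe sets that list no RefSeq transcript Eed stood 3.41 log2 above it.

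Of the accessory PRC2 subunits, Jarid2, which helps to bring the complex to its targets, had 8.08 log2 on array 1 and 7.99 log2 on arrays 2 and 3. The 3 Polycomb-like proteins, which help PRC2 bind chromatin, differed in their calls. Mtf2 had 10.62, 10.53 and 10.62 log2 and was above background (limma, adjusted p = 8.46e-07). Phf1, at 5.86 log2 on all 3 arrays, was 0.44 log2 above it, but 0.20 log2 below the 99th percentile level. Phf19, at 5.03 log2 on all 3 arrays, lay 0.39 log2 below background. The number of arrays limits the precision here, and a signal below background does not show that a transcript is missing.

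In PRC1 both E3 ligase paralogues were above background. Rnf2, known as Ring1B, had 7.42, 7.68 and 7.93 log2 on arrays 1, 2 and 3 (limma, adjusted p = 8.56e-05). Ring1 had 6.03, 5.96 and 6.03 log2, and its call was lost at the 99th percentile level, which it missed by 0.059 log2. Rnf2 was lowest on array 1 and highest on array 3, a spread of 0.51 log2, while Ring1 moved by 0.07 log2.

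The Pcgf subunits set which kind of PRC1 a ligase enters. Bmi1 and Pcgf2, the subunits of canonical PRC1, were above background, with 7.37, 7.35 and 6.91 log2 for Bmi1 and 7.84 log2 on all 3 arrays for Pcgf2. So were Pcgf3 at 8.05 log2, identical on all 3 arrays, and Pcgf6, which takes part in silencing germline genes, with 8.48, 8.45 and 8.51 log2. Pcgf1, the subunit of the PRC1 variant that contains Kdm2b, was at 3.32 log2 on all 3 arrays, and Pcgf5 had 4.04, 4.04 and 4.39 log2. Neither reached the background level on any array. Both have 1 probe set each, so no second probe set bears on those calls.

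The Cbx subunits, whose chromodomain binds the PRC2 mark, were above background in 3 of 3 measured genes. Cbx2 was at 7.93 log2, Cbx7 at 5.84 log2 and Cbx8 at 5.53 log2, each identical on all 3 arrays. Cbx7 and Cbx8 fell 0.22 and 0.53 log2 short of the 99th percentile level. Cbx8, 0.11 log2 above the main level, also lost its call with an SD floor for identical genes (limma, adjusted p = 0.135). The same held without array 1 (limma, adjusted p = 0.413) and without array 3 (adjusted p = 0.393), though its height was 0.10 log2 both times. With identical values, the spread in its test came from the background levels and limma's prior, not from Cbx8. The Phc subunits, which let PRC1 polymerise, were above background in 3 of 3 genes. Phc1 was at 7.17 log2 on all 3 arrays, and Phc2 had 6.50, 6.35 and 6.35 log2. Phc3 averaged 7.75, 7.76 and 7.31 log2 over 2 probe sets, both of them lowest on array 3.

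The COMPASS subunits Wdr5, Ash2l, Rbbp5 and Dpy30 form the module shared by all the complexes of this type. Dpy30 had 10.61, 10.63 and 10.63 log2, Ash2l 8.62, 8.73 and 8.73 log2 and Wdr5 6.91, 7.02 and 6.91 log2, so that the buds differed by at most 0.11 log2. Rbbp5 differed more, with 8.15, 7.89 and 7.60 log2. Of the catalytic subunits, Setd1a was at 7.37 log2 on all 3 arrays, and Setd1b averaged 6.51, 6.23 and 6.67 log2 over 2 probe sets, both lowest on array 2 and highest on array 3. Men1, the menin subunit of the complexes built on Kmt2a and Kmt2b, had 7.73, 6.88 and 7.04 log2. Paxip1, a subunit of the complexes built on Kmt2c and Kmt2d, had 7.29, 7.29 and 7.43 log2. All 8 were above background, also at the 99th percentile, and 5 of 8 were against the keratin-associated protein and beta-defensin level. There Setd1b lay 0.40 log2 below the level, and Wdr5 and Men1 lost their calls (limma, adjusted p of 0.183 and 0.249).

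Among the deacetylases, the class I enzymes that are members here, Hdac1, Hdac2 and Hdac3, were above background in 3 of 3. Hdac2 had 11.57, 11.64 and 11.65 log2 and Hdac1 10.08, 10.06 and 10.06 log2. Both work in the Sin3, NuRD and CoREST complexes. Hdac3, which works with the NCoR corepressors, had 6.93, 6.09 and 6.03 log2, 0.93 log2 above background on average (limma, adjusted p = 0.0156). It stood apart on array 1, and its call was lost without array 2 (1.08 log2 above background; limma, adjusted p = 0.0806) and against the 99th percentile level (limma, adjusted p = 0.268).

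The class IIa enzymes, which shuttle between nucleus and cytoplasm, were above background in 3 of 4. Hdac4 averaged 6.19, 5.99 and 6.15 log2, Hdac5 was at 6.27 log2 on every array after rounding and Hdac7 at 6.06 log2 on all 3. Hdac9, at 5.22 log2 on all 3 arrays, lay 0.20 log2 below background, and Hdac11, the class IV enzyme, at 5.40 log2, lay 0.020 log2 below it. Both were called at the 90th percentile level and with vomeronasal receptors as background, so they sit at the edge of detection. Hdac4 lost its call against the 99th percentile level (limma, adjusted p = 0.613), where Hdac7 lay 0.0080 log2 below the level. Sirt1, a deacetylase that depends on NAD, was at 7.42 log2 on all 3 arrays.

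Of the DNA methyltransferases, Dnmt1, which copies methylation after replication, had 10.10, 9.94 and 9.98 log2 (10.01 ± 0.08, SD, n = 3). Both de novo enzymes were above background. Dnmt3a had 8.64 log2 on array 1 and 8.25 log2 on arrays 2 and 3, and Dnmt3b 6.53 log2 on array 1 and 6.51 log2 on arrays 2 and 3. Dnmt3l, the cofactor without catalytic activity that is known from germ cells, was at 4.50 log2 on all 3 arrays, 0.92 log2 below background. Its call did not change under any alternative that held it.

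The Tet enzymes were above background in 3 of 3, and Tet1 varied most between buds of all the chromatin genes. Tet1 averaged 8.41, 7.69 and 7.26 log2 over 3 probe sets on arrays 1, 2 and 3 (7.79 ± 0.58, SD, n = 3; limma, adjusted p = 0.00112). Its probe sets gave 8.13, 7.15 and 6.97 log2, then 8.01, 7.63 and 7.22 log2, and 9.10, 8.30 and 7.59 log2. In 3 of 3 the value was highest on array 1 and lowest on array 3, and the ranges ran from 0.79 to 1.50 log2. Tet2 was at 5.97 log2 on all 3 arrays, 0.090 log2 below the 99th percentile level, and Tet3 averaged 6.23, 6.23 and 6.31 log2 over 2 probe sets.

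The promoters of 50 of the 58 genes were in the RefSeq promoter table (GRCm38.p6), which holds 250 bases before and 50 after each transcription start. For each gene the window with the highest ratio of observed to expected CpG was taken. Of 50 members, 45 (90%) exceeded a ratio of 0.6, the usual mark of a CpG island. The share was 50.8% of 17492 protein-coding genes and 55.8% of the 15013 measured ones. Taking the highest window favours genes with several windows, which were 13 of the 50 members and 2761 of the 17492 genes. Median CpG counts per window were 29.5 for members and 14 for all protein-coding genes. The 5 members at or under 0.6 were Hdac9, Dnmt3l, Pcgf2, Phc1 and Tet3. The first 2 of these were not above background, with ratios of 0.205 and 0.272, and the others were. Over all measured protein-coding genes, 76.7% of the 8373 with a ratio over 0.6 were above background, against 28.0% of the 6640 at or under it. Among members the same shares were 42 of 45 and 3 of 5, given as a description.

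The windows of 4 genes are shown, with each CpG in capitals, because they show CpG-rich and CpG-poor starts: the de novo methyltransferase gene Dnmt3a, above background (chr12:3806910-3807209, + strand, 47 CpG), its cofactor gene Dnmt3l (chr10:78042037-78042336, + strand, 6 CpG) and Hdac9 (chr12:34528840-34529139, - strand, 3 CpG), both not above background, and Tet1 (chr10:62887275-62887574, - strand, 17 CpG), the gene that varied most between buds. They are printed as the table gives them. The letters say nothing of methylation in these cells, which was not measured.
Dnmt3a: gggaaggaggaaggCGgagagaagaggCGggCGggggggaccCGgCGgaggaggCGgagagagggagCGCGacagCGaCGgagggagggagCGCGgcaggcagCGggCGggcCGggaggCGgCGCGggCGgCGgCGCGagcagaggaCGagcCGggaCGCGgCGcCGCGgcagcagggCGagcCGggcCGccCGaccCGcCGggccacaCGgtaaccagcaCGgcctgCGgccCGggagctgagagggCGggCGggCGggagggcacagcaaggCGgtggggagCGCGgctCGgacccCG
Dnmt3l: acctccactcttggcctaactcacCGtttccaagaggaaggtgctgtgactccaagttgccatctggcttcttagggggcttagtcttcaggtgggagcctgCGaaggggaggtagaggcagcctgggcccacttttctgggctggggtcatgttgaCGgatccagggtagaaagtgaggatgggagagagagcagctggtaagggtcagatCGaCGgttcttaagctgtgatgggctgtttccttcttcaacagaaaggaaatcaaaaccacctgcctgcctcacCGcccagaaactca
Hdac9: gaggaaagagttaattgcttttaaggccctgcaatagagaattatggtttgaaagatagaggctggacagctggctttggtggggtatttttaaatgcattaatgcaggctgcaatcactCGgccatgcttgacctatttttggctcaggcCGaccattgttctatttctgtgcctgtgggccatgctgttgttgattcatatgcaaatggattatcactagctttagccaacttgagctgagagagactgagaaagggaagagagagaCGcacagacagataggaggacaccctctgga
Tet1: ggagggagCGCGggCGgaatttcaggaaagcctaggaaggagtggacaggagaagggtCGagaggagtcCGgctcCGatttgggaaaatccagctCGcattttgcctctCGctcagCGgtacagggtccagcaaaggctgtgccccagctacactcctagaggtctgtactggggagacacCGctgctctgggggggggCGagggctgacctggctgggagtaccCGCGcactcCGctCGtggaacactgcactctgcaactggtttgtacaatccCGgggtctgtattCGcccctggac

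The remodellers were above background in all 9 genes. Of the BAF complex, the catalytic paralogues Smarca4 and Smarca2 had 9.08, 8.86 and 8.85 log2 and 6.78, 6.72 and 6.72 log2. The core subunits Smarcc1 and Smarcb1 had 9.68, 9.73 and 9.51 log2 and 8.38, 7.96 and 8.14 log2. Both DNA-binding Arid1 subunits were above background, Arid1a with 8.18, 8.06 and 8.06 log2 and Arid1b with 6.84 log2 on all 3 arrays. All of these BAF genes stayed within 0.41 log2 between buds. The NuRD helicase genes Chd4 and Chd3 had 10.58, 10.39 and 10.16 log2 and 6.79 log2 on all 3 arrays.

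Chd7, a remodeller mutated in CHARGE syndrome, a human malformation syndrome that can include kidney anomalies, was measured by 30 probe sets. Their means over arrays ran from 5.23 to 9.91 log2, and 28 of 30 were above the background level on every array. Averaged over all 30, Chd7 had 7.44, 7.51 and 7.15 log2. Single probe sets moved far more than that mean: 13 of 30 differed by over 0.5 log2 between arrays, 9 by over 1 log2 and 1 by 2.87 log2. They did not move together, since 7 were highest on array 1, 11 on array 2 and 5 on array 3. A single probe set was measured for 50 of the 58 members, so this kind of disagreement could not be seen.

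**Figure D3:**
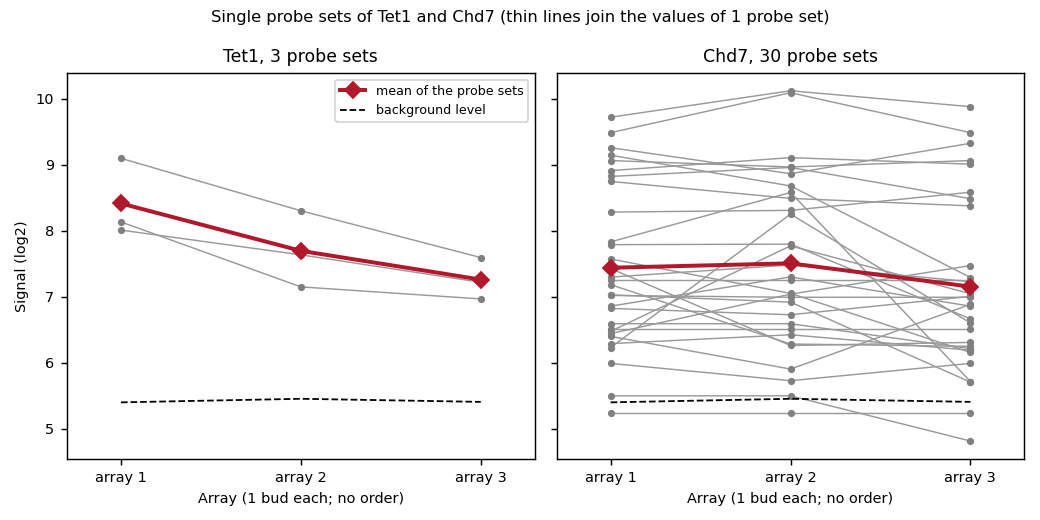
Signal (log2, vertical axis) of single probe sets on arrays 1, 2 and 3 (horizontal axis), joined by thin lines, for Tet1 (left, 3 probe sets) and Chd7 (right, 30 probe sets), with their mean in red and the background level dashed. The 3 Tet1 probe sets share 1 order of the arrays, while those of Chd7 cross each other, with 7, 11 and 5 highest on arrays 1, 2 and 3.

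The acetyltransferase paralogues Ep300 and Crebbp were above background, with 8.26 log2 on all 3 arrays and 9.04, 9.02 and 9.02 log2. Kdm1a, the histone demethylase of the CoREST complex, had 9.58, 9.57 and 9.68 log2. These genes kept their calls at every background level tried.

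Between buds, 5 of the 58 genes (8.62%) differed by over 0.5 log2, close to the 8.38% of all genes that did, and 1 (1.72%) differed by over 1 log2, where 2.37% of all genes did. Among the 52 members above background the share over 0.5 log2 was 9.62%, beside 11.7% of all genes above background. With 1 bud per array such a difference has no replicate and was not tested. The 5 were Tet1 (range 1.15 log2), Hdac3 (0.90), Men1 (0.86), Rbbp5 (0.55) and Rnf2 (0.51). Without array 1 none of the 58 genes differed by over 0.5 log2, beside 4.51% of all genes, so array 1 takes part in each of these differences. Members were identical on all arrays in 21 of 58 genes (36.2%), against 51.7% of all genes. Among genes above background the shares were 30.8% of members and 42.1% of all genes.

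Of the 37 members that varied, 20 (54.1%) were highest on array 1, 5 (13.5%) on array 2 and 9 (24.3%) on array 3, and 3 shared their highest value between arrays. Over all varying genes the shares were 25.4%, 26.5% and 23.9%, and over varying genes above background 34.2%, 20.2% and 22.8%. The median excess of array 1 over the mean of arrays 2 and 3 was 0.06 log2 in varying members, 0.03 log2 in varying genes above background and −0.01 log2 in all varying genes. The shift was small for most members, since only Tet1, Hdac3, Men1, Dnmt3a and Rbbp5 exceeded 0.35 log2. Rnf2 ran the other way and was lowest on array 1.

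The arrays also differed in marker genes, whose part in these differences was not tested. Of the 10 bud markers that varied, 9 were highest on array 1, among them Gfra1 (8.58, 8.22 and 7.85 log2), Lhx1 (7.76, 6.97 and 6.79 log2) and Krt8 (10.77, 9.67 and 9.90 log2). Markers of dividing cells were highest on array 1 in 5 of 6 that varied, with Mcm3 at 8.21, 7.74 and 8.12 log2. Endothelial markers were lowest on array 2 in 10 of 10, with list medians of 6.24, 5.70 and 6.52 log2. The 3 erythroid markers that varied were also lowest there, with Hbb-y at 8.86, 5.48 and 8.52 log2. Leukocyte list medians were 5.05, 5.03 and 5.03 log2, and 9 of 10 mesenchyme markers were identical on all arrays. In sorted cells measured in bulk, a lower signal from fewer cells of a type and from less RNA per cell cannot be told apart.

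**Figure D4:**
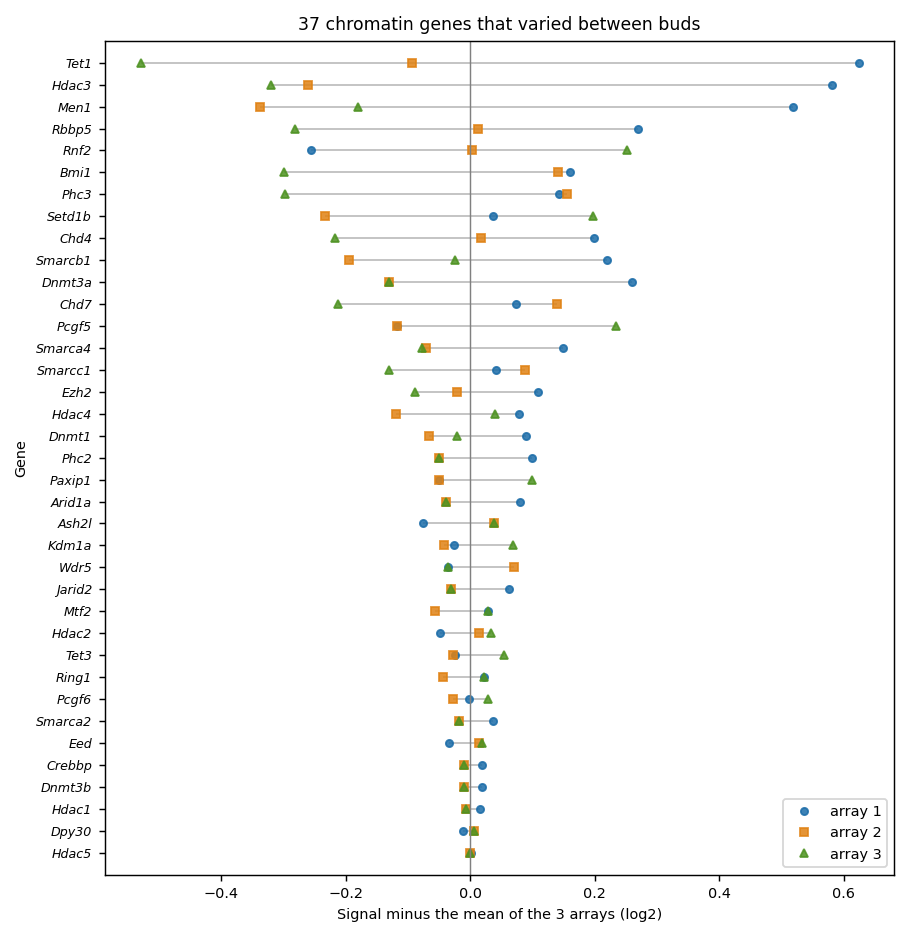
Signal minus the mean of the 3 arrays (log2, horizontal axis) for the 37 chromatin genes that varied (vertical axis), with 1 point per array and a line over the range. Array 1 is the highest point in 20 genes, among them Tet1, Hdac3 and Men1, and the lowest for Rnf2.

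Paralogue usage was read as the log2 difference between 2 paralogues on each array, since a probe effect that is constant across arrays cancels when that difference is compared between arrays. Of 15 pairs, 2 changed their balance by over 0.5 log2. Tet1 minus Tet3 was 2.18, 1.47 and 0.95 log2 on arrays 1, 2 and 3, a change of 1.23 log2. Ring1 minus Rnf2 was −1.39, −1.72 and −1.90 log2, a change of 0.51 log2. Both balances were highest on array 1 and lowest on array 3. In each pair mainly 1 gene moved: Tet1 ranged over 1.15 log2 and Tet3 over 0.08 log2, and Rnf2 over 0.51 log2 and Ring1 over 0.07 log2.

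The next pairs were Bmi1 and Pcgf2, Setd1a and Setd1b, and Chd3 and Chd4, whose balances changed by 0.46, 0.43 and 0.42 log2. In these Pcgf2, Setd1a and Chd3 were identical on all arrays, so the change came from the other gene. Dnmt3a minus Dnmt3b was 2.10 log2 on array 1 and 1.74 log2 on arrays 2 and 3. The balance changed by 0.20 log2 for Ezh1 and Ezh2, by 0.17 log2 for Smarca2 and Smarca4, by 0.10 log2 for Hdac1 and Hdac2 and by 0.03 log2 for Ep300 and Crebbp. In 14 of 15 pairs both genes were above background. The other was Mtf2 and Phf19.

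**Figure D5:**
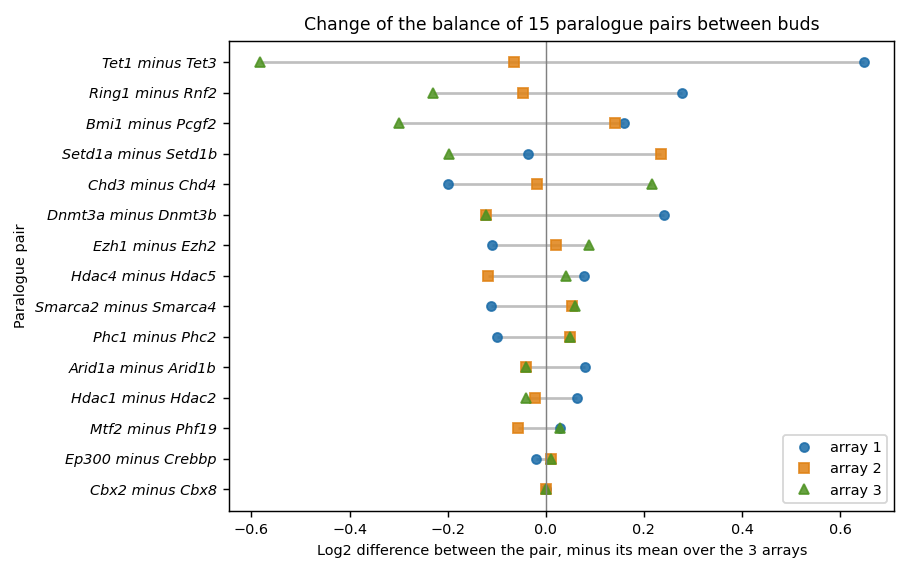
Log2 difference between 2 paralogues on each array, minus its mean over the 3 arrays (horizontal axis), for 15 pairs (vertical axis). The widest pairs are Tet1 minus Tet3, with a range of 1.23 log2, and Ring1 minus Rnf2, with 0.51 log2; the points of Cbx2 minus Cbx8 coincide because both genes were identical on all arrays.

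Among 102 further genes of the same complexes and families, 95 were measured and 89 (93.7%) were above background, where 53.0% of all genes were. The 4 genes not above it that the naming rule gives were Ezhip, an inhibitor of PRC2 (4.98 ± 0.03 log2, SD, n = 3), L3mbtl2, a subunit of the PRC1 variant of Pcgf6 (5.56 ± 0.33 log2), the mitochondrial deacetylase Sirt3 (5.35 log2) and Gadd45b (4.64 log2), the last 2 identical on all arrays. The first named on the other side were the PRC2 subunits Aebp2 (6.31 log2) and Epop (6.28 log2) and the heterochromatin proteins Cbx1 (9.43, 9.35 and 9.43 log2) and Cbx3 (9.52, 9.56 and 9.52 log2). The widest ranges were those of the acetyltransferase Kat7 (7.57, 6.59 and 7.27 log2), the thymine glycosylase Mbd4 (7.13, 7.13 and 8.02 log2) and Uhrf1, the partner that brings Dnmt1 to replicated DNA (9.22, 8.93 and 8.39 log2). Uhrf1 had the same order of arrays as Tet1, an order also seen in the members Ezh2, Bmi1, Rbbp5, Hdac3, Smarca4 and Chd4. Gfra1, Lhx1 and other bud markers had it too, as did others of the further chromatin genes. The share of all genes with this order was not counted, so it sets none of these genes apart. Of the 53 of these genes that varied, 26 (49.1%) were highest on array 1. The share was 25.4% over all varying genes and 34.2% over varying genes above background.

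Lists of genes known as targets of these systems were read in the same fit, in which 53.0% of all genes were above background. The lists were chosen with earlier results of these data known. Their counts therefore depend on which targets were listed and are a description only. None of 12 germline genes known to be silenced by promoter DNA methylation was above background in limma's test (0 with an unadjusted p under 0.05 as well), with Dazl at 3.82 log2 and Hormad1 at 3.66 ± 0.03 log2 (SD, n = 3). Of 13 measured lineage regulators known as Polycomb targets in embryonic stem cells, 2 were above background, Sox1 at 6.28 log2 and Nkx2-5 at 6.38 log2, both identical on all 3 arrays. Neither was called against the keratin-associated protein and beta-defensin level. Pax3 (4.88 ± 0.15 log2), Lhx5 (4.55 ± 0.11 log2) and Tbx5 (4.20 ± 0.07 log2) were below background. Of 10 measured imprinted genes, which are expressed from 1 parental copy, 9 were above background, all but Phlda2 at 4.53 log2. Plagl1 varied most among them, with 8.87, 8.48 and 9.43 log2. Silencing, binding or methylation was not measured in these samples, and these genes are given by their signal only. Their counts do not show whether the chromatin genes acted on them.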

How the data were processed

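Each of the 3 arrays measured amplified RNA (1 round) from the sorted cells of 1 ureteric bud. The values the authors deposited are 1 number per probe set and array. No source states their log base, and they were read as log2 from their range. The submitters' processing notes name Affymetrix Expression Console as the tool. Its version, background correction, normalization and summary method are nowhere given in the sources used here. Array medians were 5.47, 5.50 and 5.48 log2, and the columns were used as deposited. Of 35557 probe sets, 14486 (40.7%) were identical on all 3 arrays within 1e-06 log2. Nothing in the labels says whether the buds came from separate litters, so the spread is that between these samples.

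Probe sets with 1 gene symbol in the platform annotation (21789) were averaged per gene, which gave 19938 genes. With limma 3.58.1 in R 4.3.3, each gene's value minus its array's background level was fitted, tested one-sided against 0 and adjusted by Benjamini-Hochberg over all genes (prior degrees of freedom 1.71). For identical genes that test has no spread between buds. Differences between arrays were described by ranges, with no test. Members and lists were chosen with earlier results of these data known. Every member could be named. From other lists, the less frequent side of the call (at most 5 genes, otherwise the first 4 of each side) and the 3 widest ranges were named. Background level, background genes, identical genes, probe-set choice, normalization, a filter, the test and single arrays were varied. An alternative without probe sets that list no RefSeq transcript was chosen after seeing the data. Gene symbols and promoter windows come from the platform annotation and RefSeq (GRCm38.p6).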

Additional observations from a re-analysis of the deposited data

How the results depend on the processing

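No paired analysis was possible because the arrays form 1 group. The count of members above background was 44 to 54 under all alternatives but 2: it was 32 against keratin-associated protein and beta-defensin probe sets and 36 of 37 with identical genes left out. Without 1 array it was 51. Of the 52 members called, 32 kept their call in every alternative that held them. These were the 32 called against keratin-associated protein and beta-defensin probe sets, where 21.1% of all genes were called. The share of all genes that kept their call in every alternative was not counted. Against keratin-associated protein and beta-defensin probe sets the counts were 4 for PRC2, 5 for COMPASS, 3 for the deacetylases, 3 for the DNA methylation enzymes and 50 for the 95 further chromatin genes. With identical genes left out they were 4 for PRC2, 6 for PRC1 and 51 for the further genes, since fewer genes were tested. The deacetylases had 4 at the 99th percentile. The complexes' counts without 1 array were 11 to 12 for PRC1 and 6 to 7 for the deacetylases.

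At the 99th percentile 6 members turned to below background: Phf1 (−0.20 log2), Ring1 (−0.059), Cbx7 (−0.22), Cbx8 (−0.53), Hdac7 (−0.0080) and Tet2 (−0.090). Against keratin-associated protein and beta-defensin probe sets 18 did: Ezh1 (−0.28), Eed (−0.39), Phf1 (−1.0), Ring1 (−0.86), Cbx7 (−1.02), Cbx8 (−1.34), Phc2 (−0.47), Setd1b (−0.40), Hdac3 (−0.52), Hdac4 (−0.75), Hdac5 (−0.60), Hdac7 (−0.81), Dnmt3b (−0.35), Tet2 (−0.89), Tet3 (−0.61), Smarca2 (−0.13), Arid1b (−0.027) and Chd3 (−0.071), while Wdr5 and Men1 lost their calls (limma, adjusted p of 0.183 and 0.249). Members below background turned to above it with vomeronasal receptors, namely Phf19 (0.18), Hdac9 (0.36) and Hdac11 (0.54), and at the 90th percentile, namely Hdac9 (0.18) and Hdac11 (0.36). These levels differ by construction. Eed fell below the keratin-associated protein and beta-defensin level only as the mean of its 2 probe sets. The one that lists RefSeq transcripts had 8.77, 8.86 and 8.87 log2 on arrays 1, 2 and 3, where that level was 6.82, 6.91 and 6.87 log2.

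Members differing by over 0.5 log2 numbered 0 without array 1 (4.51% of all genes), 5 without array 2 (the same 5 genes, 8.62% of members beside 5.54% of all genes), 3 without array 3 (Men1, Hdac3 and Tet1, 5.17% beside 4.91%), 7 where the brightest probe set stood for each gene, which added Phc3 and Setd1b (12.1% beside 8.72%), and 1 at over 1 log2 (1.72% beside 2.37%). Paralogue pairs past 0.5 log2 numbered 1 to 2 without 1 array and 3 with the brightest probe sets. The cause was not tested. The number of arrays and the share of identical values limit every statement on spread.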
